A study of Mus musculus with 54 samples.

Results

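Haematopoietic stem cells (HSCs) that the study's deposited annotation predicts as tHSC1, tHSC2 or tHSC3 were compared with one another in undisturbed mice. The members are the cells that the annotation marks as steady state (Ho) and gives 1 of these 3 predicted types. They number 305 of the 2301 annotated cells and of the 1270 annotated steady state cells. Of the 305, 189 were tHSC1, 93 were tHSC2 and 23 were tHSC3. The study sequenced single blood cells of mice at steady state and after transplantation by a modified Smart-seq2 protocol that enriches the 3′ ends of messages. All 305 cells came from untreated C57BL/6 mice aged 8 to 10 weeks, and lay in 12 of the 54 libraries. L49, L50, L51, L54, L55 and L73 are labelled bone marrow and spleen, and the other 6 libraries bone marrow alone. L49 and L55 held cells collected after transplantation as well. The 5 sorting gates were LT_HSC, Fraction I, Fraction III, ESLAM and ESLAMSK, which the labels call iHSC1, iHSC2, iHSC3, iHSC4 and iHSC5. How the types were predicted is not given in the sources used here, nor how many animals stood behind a library.

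HSCs sit at the top of the blood hierarchy. They divide rarely, renew themselves and give rise to all blood lineages, and in mouse marrow they are sorted by combinations of surface proteins that exclude mature cells. Transcription factors such as Hlf and Mecom keep them undifferentiated, Procr encodes the surface receptor EPCR used to sort them, and Pdzk1ip1 encodes a small membrane protein whose transcript marks them. Fos belongs to the immediate early genes, which are switched on within minutes of a stimulus, cell handling included. Plasma cells are the antibody-secreting end stage of the B lineage, and neutrophils, mast cells and red cells are end stages of other blood lineages.

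The 5 gates held only these types. All 305 annotated cells of the gates were tHSC1, tHSC2 or tHSC3, and 0 steady state cells outside the gates were. tHSC1 made up 70.7% of the 58 ESLAM cells (95% exact Clopper-Pearson interval 57.3 to 81.9), 59.6% of 57 ESLAMSK cells, 55.9% of 102 Fraction I cells, 69.7% of 66 Fraction III cells and 11 of the 22 LT_HSC cells. tHSC2 made up 29.3% of ESLAM cells (18.1 to 42.7), 38.6% of ESLAMSK, 43.1% of Fraction I and 45.5% of LT_HSC cells, and 0 of the 66 Fraction III cells, which allows a share of up to 4.55%. tHSC3 was mostly a Fraction III type: 20 of its 23 cells lay in that gate, where they were 30.3% (19.6 to 42.9). ESLAMSK, Fraction I and LT_HSC held 1 tHSC3 cell each, and ESLAM held 0 of 58, which allows up to 5.17%. The intervals and these limits (3 counts) cover counting error alone.

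**Figure D1:**
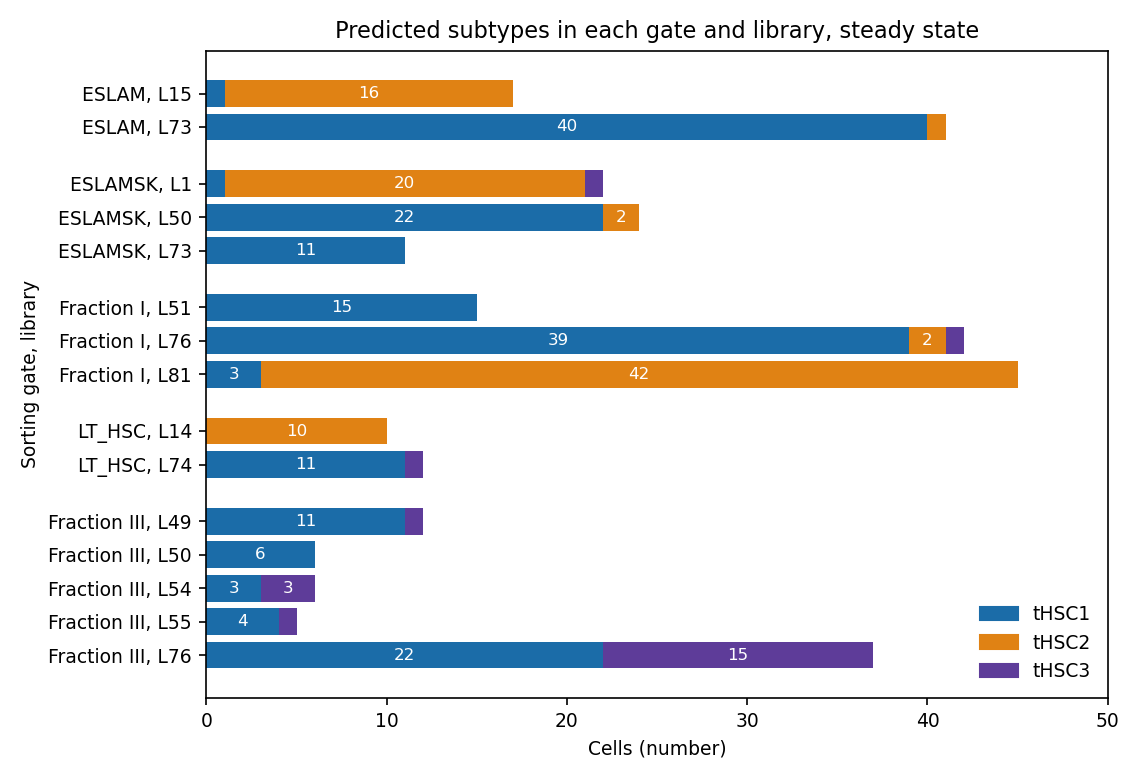
Number of cells (x axis) of each predicted subtype in each pair of sorting gate and library (y axis), at steady state. Within ESLAM, ESLAMSK, Fraction I and LT_HSC, each library is nearly all tHSC1 or nearly all tHSC2, and only L76 has many tHSC3 cells (15 in Fraction III).

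Within a gate, the choice between tHSC1 and tHSC2 followed the library. In ESLAM, L73 gave 40 tHSC1 and 1 tHSC2 cells, while L15 gave 1 tHSC1 and 16 tHSC2 cells. In ESLAMSK, L50 gave 22 tHSC1 and 2 tHSC2 cells and L73 gave 11 and 0, while L1 gave 1 and 20. In Fraction I, L51 gave 15 tHSC1 and 0 tHSC2 cells and L76 gave 39 and 2, while L81 gave 3 and 42. In LT_HSC, L74 gave 11 tHSC1 and 0 tHSC2 cells, while L14 gave 0 and 10. The same holds in all 4 gates that held both types. A permutation test over the 15 pairs of library and gate (100000 resamples, two-sided) put 7.53%, 22.7% and 47.6% of the spread of the tHSC1, tHSC2 and tHSC3 share between gates, with p adjusted over the 3 subtypes of 0.943, 0.771 and 0.345. This test called no difference of make-up between gates, which does not show that the gates are alike. L50, L73 and L76 each gave more than 1 pair, and the test took pairs of 1 library as independent.

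Some libraries stood apart, which bears on every comparison of tHSC1 with tHSC2. Every sum of L1, L14 and L15 held Y-linked counts (83.2 to 576 CPM, counts scaled to 1000000 per sum or cell, over 4 Y-linked genes) and at most 3.06 CPM of Xist, the X-inactivation transcript. The sums of the other 9 libraries held 0 to 2 Y-linked counts each. Xist stood at 20.2 to 495 CPM there, except for the tHSC1 sums of L54 and L55 (5.97 and 2.26 CPM), whose tHSC3 sums had 178 and 148 CPM. Thus 1 of the 6 libraries with 5 or more tHSC1 cells (L76, with 1 count) carried Y-linked counts at all, while 3 of the 4 with 5 or more tHSC2 cells had 83.2 to 137 CPM. Counts per cell ran from 20709 to 728604 (median 121266) and genes per cell from 1983 to 8161. Median counts per cell were 121266 in tHSC1, 108486 in tHSC2 and 197361 in tHSC3, and median genes 4685, 3485 and 6023. Within the 6 libraries that held both, tHSC1 cells had fewer genes than tHSC3 cells in all 6, by 0.50 ± 0.23 on the log2 scale (SD, n = 6; two-sided exact sign-flip permutation p = 0.03125, the smallest possible with 6, adjusted p = 0.1875 over 6 tests). Among the 305 cells, 0 had identical columns and 0 identifiers were repeated.

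The summed level of Hlf, Procr, Mecom and Pdzk1ip1 set tHSC3 apart from most cells of the other subtypes, and Fos did not. Fos had medians of 2091 CPM in tHSC1, 1010 CPM in tHSC2 and 2764 CPM in tHSC3 cells. The medians of Mecom were 24.7, 2.01 and 0 CPM, near the floor in tHSC2 and tHSC3. Its highest values were 1345, 435 and 19.7 CPM. Hlf, a transcription factor of the stem cell programme, had a median of 449 CPM in tHSC1 cells and was detected in 187 of 189. In tHSC2 cells its median was 82.5 CPM, and in tHSC3 cells 16.8 CPM. The summed level of Hlf, Procr, Mecom and Pdzk1ip1 was 1293 CPM in the median tHSC1 cell (25.0 to 5255), 1111 CPM in tHSC2 (15.1 to 2747) and 51.1 CPM in tHSC3 (0 to 154). It was under 200 CPM in 4 of 189 tHSC1 cells, 4 of 93 tHSC2 cells and 23 of 23 tHSC3 cells. The sum was thus 200 CPM or more in nearly all tHSC1 and tHSC2 cells, though not each of its genes was detected. Procr was detected in 76.7% of tHSC1, 74.2% of tHSC2 and 65.2% of tHSC3 cells, and Mecom in 71.4%, 50.5% and 47.8%. The medians of Procr were 34.8 CPM in tHSC1, 181 CPM in tHSC2 and 6.62 CPM in tHSC3 cells. In tHSC3 the data go against the stem cell label, so this type is called here by its predicted name and described by its leading genes.

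**Figure D2:**
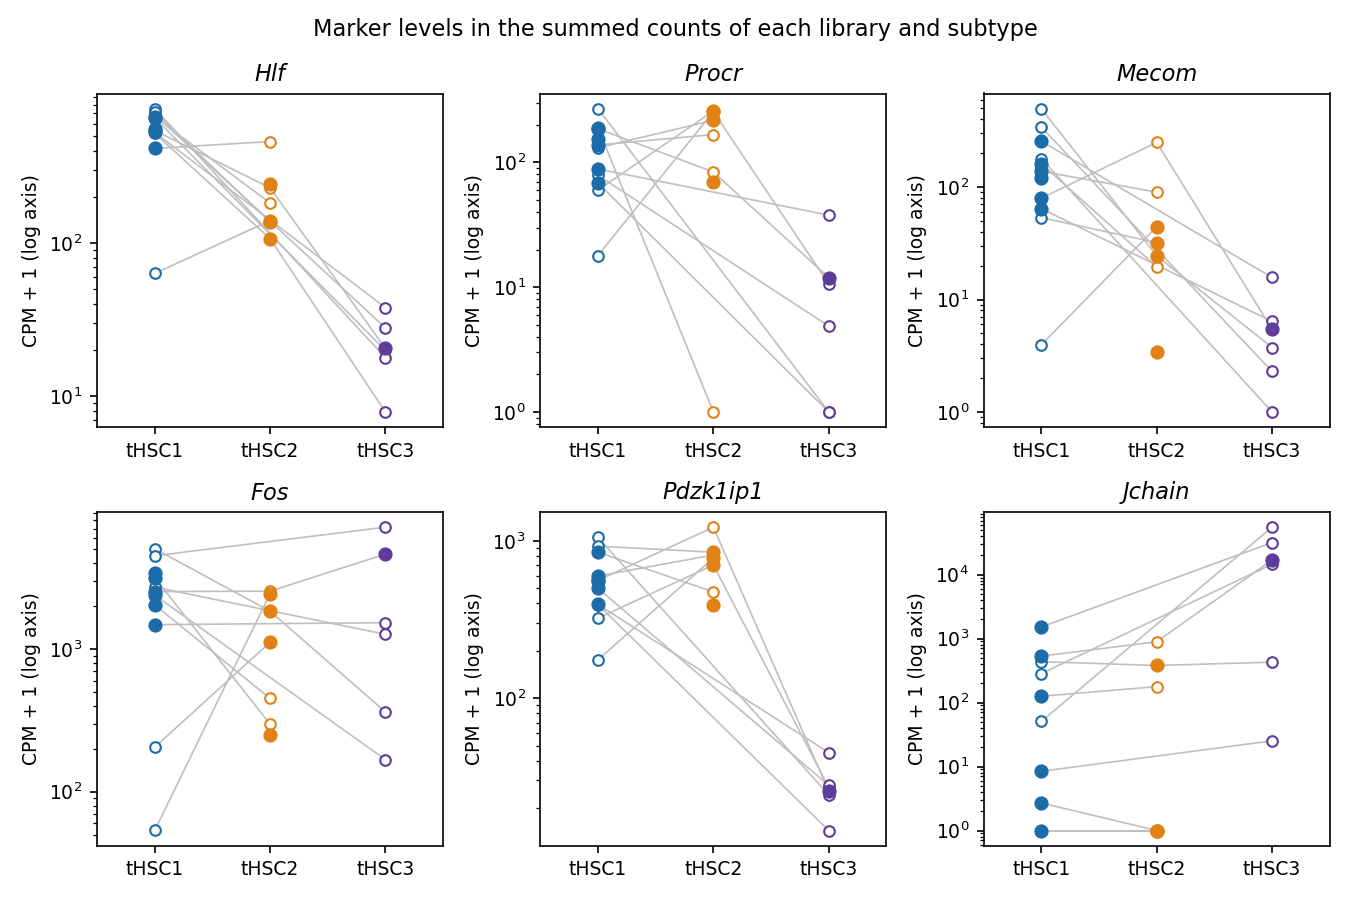
CPM + 1 (log axis) of the 5 markers and of Jchain in the summed counts of each library and subtype. Filled points are sums of 5 or more cells, open points are smaller sums, and grey lines join sums of one library. Hlf and Pdzk1ip1 are lower in tHSC3 than in tHSC1 in all 6 libraries that hold both, and Fos is not.

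Most tHSC3 cells expressed genes of antibody-secreting cells at high levels. Jchain encodes the joining chain of secreted IgM and IgA. Its median was 104 CPM in tHSC1 cells, with a highest value of 3584. It lay between 10619 and 73366 CPM (median 23484) in 15 of the 23 tHSC3 cells, and at most at 1486 CPM in the other 8. The 15 cells came from 4 libraries, and 14 of them from Fraction III. They were picked on Jchain, so what follows is a description. Mzb1, a chaperone of antibody assembly, had a median of 9.15 CPM in tHSC1 cells and 3515 CPM in these 15. In the 15 cells, Xbp1, the transcription factor of the secretory programme, had a median of 2283 CPM, Sdc1, the plasma cell surface proteoglycan CD138, had 434 CPM, and Tnfrsf17, the survival receptor BCMA, had 460 CPM. Prdm1 and Irf4, transcription factors of plasma cell differentiation, had 231 and 307 CPM. The 15 cells also carried Ly6d (median 2016 CPM), Cd79a, the B lineage signalling chain of the B cell receptor (740 CPM), the MHC class II invariant chain Cd74 (5349 CPM) and Ly6c2 (9303 CPM). Pax5, which mature B cells express and plasma cells switch off, was at 0 in all 15, as was Siglech, a gene of plasmacytoid dendritic cells. Both were also at 0 in every tHSC1 cell, so they do not set the 15 apart.

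**Figure D3:**
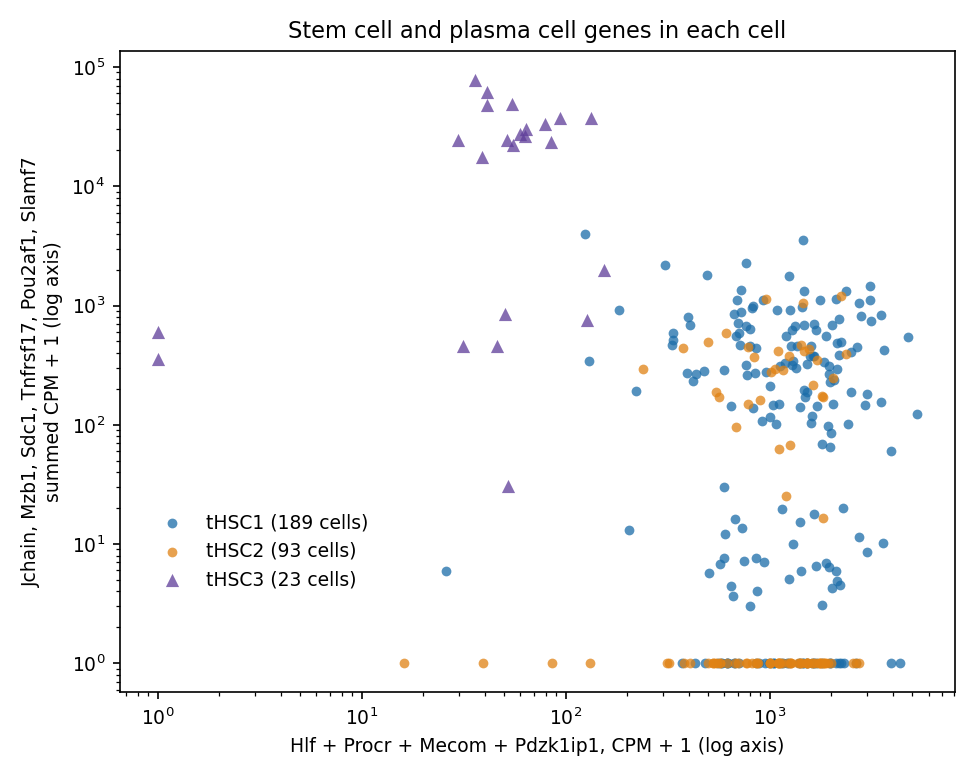
Each point is 1 of the 305 cells. The x axis is the summed CPM + 1 of Hlf, Procr, Mecom and Pdzk1ip1, and the y axis that of Jchain, Mzb1, Sdc1, Tnfrsf17, Pou2af1 and Slamf7 (both log axes). Of the 23 tHSC3 cells, 15 lie at the top left, above every tHSC1 and tHSC2 cell, and the other 8 lie left and lower.

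The other 8 tHSC3 cells carried genes of several lineages. In a cell of L1 from ESLAMSK, the neutrophil granule genes Ngp and Camp stood at 43482 and 50586 CPM, and the alarmin S100a8 at 67492 CPM. A Fraction III cell of L54 had 28784 CPM of Ngp and 29529 CPM of Camp. A Fraction III cell of L76 was led by Mpo (10392 CPM), Elane (9222 CPM) and Ctsg (3993 CPM), granule proteases and peroxidase of immature neutrophils and monocytes. Another Fraction III cell of L76 had the mast cell proteases Cma1 at 46340 CPM, Tpsb2 at 37857 CPM and Mcpt4 at 18928 CPM. A Fraction III cell of the same library had Cd163l1 (3979 CPM), Cd7 (3672 CPM) and the interleukin-7 receptor Il7r (1247 CPM), genes of lymphocytes. The remaining 3 cells carried the red cell genes Car1 (1904 to 6653 CPM), a carbonic anhydrase, and Klf1 (323 to 716 CPM), the erythroid transcription factor.

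Counted by list, the summed B cell genes were above every tHSC1 cell in 15 of 23 tHSC3 cells, those of lymphoid priming in 15, the plasma cell and secretory genes in 16, the monocyte and macrophage genes in 11, the mast cell and basophil genes in 8, the MHC class II and dendritic cell genes and the G2/M genes in 6 each, the neutrophil granule genes in 5, and the erythroid and NK cell genes in 3 each. The summed HSC identity genes were above every tHSC1 cell in 0 of 23 and below every one in 11, with medians of 10193 CPM in tHSC1 and 4492 CPM in tHSC3. The plasma cell and secretory list was drawn up after the values of tHSC3 had been seen. Doublets were not called, and the part of doublets, free RNA or sort impurity in these profiles was not tested.

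**Figure D4:**
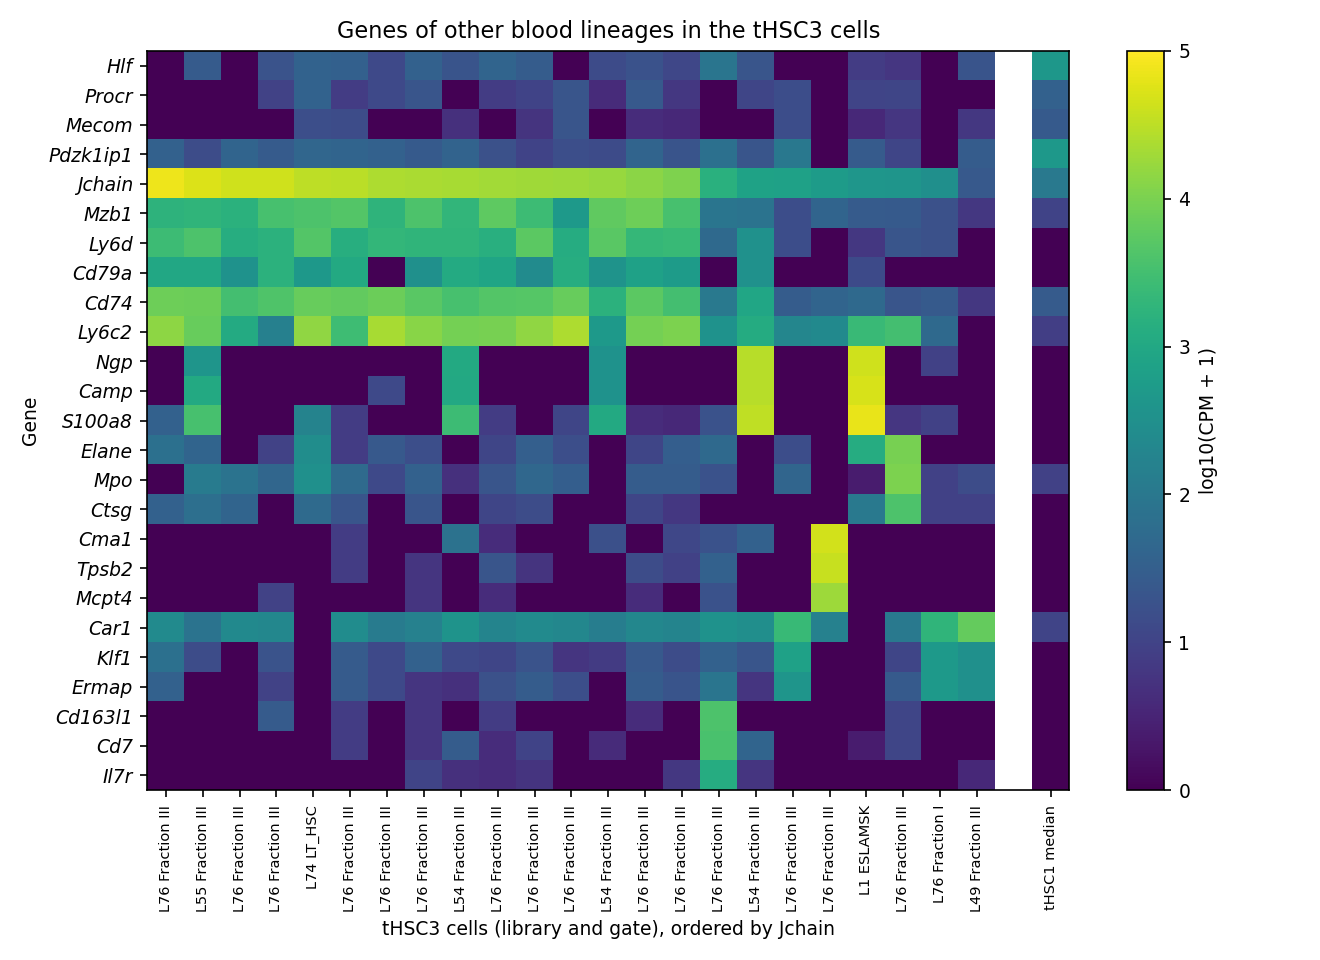
Log10(CPM + 1) of stem cell genes and genes of other lineages (rows) in the 23 tHSC3 cells (columns, named by library and gate and ordered by Jchain), beside the median of the tHSC1 cells. The first 15 cells share Jchain, Mzb1, Ly6d, Cd74 and, with the exception of a few low cells, Cd79a and Ly6c2, and the last 8 show other sets.

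The difference stood inside a single gate and library. Fraction III of L76 gave 22 tHSC1 and 15 tHSC3 cells. There Hlf had a median of 636 CPM (5.98 to 2385) in tHSC1 and 11.8 CPM (0 to 85.4) in tHSC3, and Jchain 409 CPM (145 to 1673) in tHSC1 and 19573 CPM (405 to 73366) in tHSC3. Among the genes of the sorting proteins, Kit, the stem cell factor receptor, had medians of 295 CPM in tHSC1 and 77.3 CPM in tHSC3. Ly6a, which encodes Sca-1, had 403 CPM in tHSC1 and 3843 CPM in tHSC3. Cd48, whose protein is used to gate out more mature cells, was detected in 3 of 22 tHSC1 cells and 11 of 15 tHSC3 cells. The tHSC1 cells were shallower, with median counts of 67072, against 151003 in tHSC3, and 3386.5 genes, against 5889. A single gate of a single library is 1 sample, so these values have no test.

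Counts were then summed by library and subtype and compared across the 6 libraries that held both tHSC1 and tHSC3, with the library as a block. The tHSC3 sums held 1 cell in L1, L49, L55 and L74, 3 in L54 and 16 in L76. Levels are CPM of these sums, and fold changes come from the fit with TMM scaling. edgeR's quasi-likelihood test with Benjamini-Hochberg adjustment called 86 of 9996 genes (0.86%) at an adjusted p under 0.05, of which 29 (0.29%) were higher and 57 (0.57%) lower in tHSC1. With RLE scaling 119 were called, 54 higher and 65 lower, and with each cell thinned to 20000 counts 143, 84 higher and 59 lower. This fit gave every gene the spread of the trend and left none of its own, so p-values of genes that vary between libraries are too small. With edgeR's robust estimates of spread, an alternative added after the data were seen, 78 genes were called and 75 were shared. If the types were predicted from these same counts, the p-values are no independent evidence of the subtypes. Of the HSC identity genes, 10 of 32 were higher in tHSC1 and 0 lower. Their median log2 change was 3.63, against 0.39 over all genes tested.

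Hlf stood at 519, 654, 751, 686, 524 and 540 CPM in the tHSC1 sums of L1, L49, L54, L55, L74 and L76, and at 6.86, 18.8, 16.8, 26.9, 36.8 and 19.4 CPM in the tHSC3 sums of the same libraries. The ranges do not overlap, and the mean was 612 ± 97.8 CPM in tHSC1 and 20.9 ± 10.1 CPM in tHSC3 (SD, n = 6 each; log2 change 4.62 ± 0.88, SE, adjusted p = 5.05e-05). Mecom, a transcription factor that HSCs need to persist, stood at 235 ± 166 CPM in tHSC1 and 4.76 ± 5.26 CPM in tHSC3 (log2 5.27 ± 1.37, adjusted p = 0.0165). Its call ended when L1, L54, L55, L74 or L76 was left out, with adjusted p up to 0.159. Pdzk1ip1 ran from 322 to 1051 CPM in tHSC1 and from 13.4 to 44.1 CPM in tHSC3 (log2 4.01 ± 0.74, adjusted p = 2.41e-05).

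The interferon-induced membrane proteins Ifitm1 and Ifitm3, high in stem cells without infection, were also higher in tHSC1. Ifitm1 ran from 2408 to 4673 CPM in tHSC1 and from 45.2 to 406 CPM in tHSC3 (log2 3.72 ± 0.35, adjusted p = 1.85e-22). Ifitm3 averaged 1684 ± 217 CPM in tHSC1 and 288 ± 212 CPM in tHSC3 (log2 2.47, adjusted p = 8.81e-07). The transcription factor Nfix, which supports stem cell survival, had 178 ± 86.8 CPM in tHSC1 and 5.25 ± 5.59 CPM in tHSC3 (log2 5.06, adjusted p = 0.0192). The phosphatase gene Dusp2 was the 1 called member of 25 tested immediate early genes, at 571 ± 197 CPM in tHSC1 and 47.5 ± 55.1 CPM in tHSC3. Tgm2, Trim47, Gcnt2 and Krt18 were among the 8 largest higher changes (log2 4.38 to 4.80). All 29 genes called higher were higher in 6 of 6 libraries, while 15 of the 57 called lower were lower in 6 of 6. These genes were called on the same sums, and the share over all genes tested was not counted. The counts are thus a description and add no support.

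Procr and Fos were not called. Procr averaged 117 ± 92.2 CPM in tHSC1 and 10.2 ± 13.8 CPM in tHSC3, higher in tHSC1 in 6 of 6 libraries, with a log2 change of 3.68 ± 1.27 (adjusted p = 0.195). Fos averaged 3113 ± 1370 CPM in tHSC1 and 2518 ± 2781 CPM in tHSC3, higher in tHSC1 in 3 of 6 libraries (log2 0.57 ± 0.40, adjusted p = 0.708), and the sign of its change turned with the method. Kit (320 ± 170 CPM in tHSC1, 117 ± 61.8 CPM in tHSC3) and Ly6a (537 ± 138 CPM in tHSC1, 2844 ± 2492 CPM in tHSC3; adjusted p = 0.0723) were not called either.

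On the other side, 17 of the 22 plasma cell and secretory genes were lower in tHSC1 and 0 higher, with a median log2 change of -4.77, against 0.39 over all genes. With robust estimates 15 of the 22 were called, all lower. The list was chosen after the values of tHSC3 were seen, so its count supports nothing on its own. Jchain stood at 435, 7.41, 283, 49.6, 1516 and 532 CPM in the tHSC1 sums of L1, L49, L54, L55, L74 and L76, and at 427, 24.2, 14521, 55109, 31696 and 16953 CPM in the tHSC3 sums. The values were close in L1 and both low in L49, whose single tHSC3 cells were those led by granule and by red cell genes, and far apart in the other 4 libraries (log2 -4.75 ± 0.31, adjusted p = 1.84e-48). With robust estimates the adjusted p of Jchain was 0.229 and its call ended, and with DESeq2 it was 1.95e-05. Mzb1 averaged 23.5 ± 18.6 CPM in tHSC1 and 2057 ± 1731 CPM in tHSC3, lower in tHSC1 in 6 of 6 libraries (log2 -5.82 ± 0.80, adjusted p = 3.93e-10). Slamf7, a receptor of plasma cells and other lymphocytes, had 0.87 ± 1.38 CPM in tHSC1 and 500.3 ± 471 CPM in tHSC3 (log2 -8.44, adjusted p = 4.06e-05), a call that ended with DESeq2 (adjusted p = 0.212). Ly6c2 averaged 81.1 ± 87.6 CPM in tHSC1 and 6206 ± 5412 CPM in tHSC3 (log2 -6.40, adjusted p = 6.51e-39), lower in tHSC1 in all libraries but L49. Other lists had single called members, all lower in tHSC1: Cd79a of 5 B cell genes (median log2 change -5.64), Cd74 of 7 MHC class II genes (0.17), Cd52 of 12 lymphoid priming genes (0.29) and Ctss of 12 monocyte genes (-1.38). The medians of the MHC class II and lymphoid priming lists thus had the opposite sign to their called gene. Of the 4, Cd74 and Cd52 lost the call with robust estimates (adjusted p = 0.624 and 0.122).

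Some of the plasma cell and secretory genes act in protein folding and export. The separate list of heat shock and chaperone genes had 0 of 15 called, with a median log2 change of -0.09. Creld2, a chaperone induced when unfolded proteins build up in the endoplasmic reticulum, stood at 50.8, 2.70, 15.9, 4.51, 61.4 and 74.03 CPM in the tHSC1 sums of L1, L49, L54, L55, L74 and L76, and at 340, 137, 1482, 913, 890 and 2313 CPM in the tHSC3 sums (log2 -5.68 ± 0.80, adjusted p = 8.53e-10). All 6 tHSC3 sums were above all 6 tHSC1 sums. The chaperone Hsp90b1 changed by -3.0 on the log2 scale (adjusted p = 7.52e-06) and Ssr4, a subunit of the translocon-associated complex, by -3.76 (adjusted p = 2.34e-06). Derl3, which removes misfolded proteins from the endoplasmic reticulum, changed by -3.89 but was not called (adjusted p = 0.523). It was at 1023 CPM in the tHSC3 sum of L76 and at 0 in those of L49 and L55.

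The promoters of these 3 genes are shown because they alone in the list hold a match to the endoplasmic reticulum stress element, the motif through which the unfolded protein response acts. The letters searched were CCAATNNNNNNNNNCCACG on both strands, in the whole promoter entry of each RefSeq start (GRCm38.p6). The 250 bases before the start are printed. A match stood in 3 of the 19 listed genes with a promoter entry (15.8%) and in 37 of all 27025 genes with one (0.137%). The list was drawn up after the values of tHSC3 had been seen. Capitals mark the matches, and each run is read 5′ to 3′ on the strand of its gene. Creld2 lies on chr15:88819396-88819645 (+), Hsp90b1 on chr10:86705445-86705694 (-) and Derl3 on chr10:75893148-75893397 (+). A match is a description of these letters and not of factor binding.
Creld2: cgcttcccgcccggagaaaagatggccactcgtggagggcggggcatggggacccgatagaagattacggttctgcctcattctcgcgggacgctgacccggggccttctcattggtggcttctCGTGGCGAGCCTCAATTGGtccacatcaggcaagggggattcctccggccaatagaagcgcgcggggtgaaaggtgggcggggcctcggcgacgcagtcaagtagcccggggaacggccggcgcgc
Hsp90b1: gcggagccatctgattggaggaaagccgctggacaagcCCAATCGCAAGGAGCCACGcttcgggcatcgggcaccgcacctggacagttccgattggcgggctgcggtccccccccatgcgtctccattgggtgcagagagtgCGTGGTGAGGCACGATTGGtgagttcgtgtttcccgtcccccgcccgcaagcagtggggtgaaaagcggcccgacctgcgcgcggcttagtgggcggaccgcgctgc
Derl3: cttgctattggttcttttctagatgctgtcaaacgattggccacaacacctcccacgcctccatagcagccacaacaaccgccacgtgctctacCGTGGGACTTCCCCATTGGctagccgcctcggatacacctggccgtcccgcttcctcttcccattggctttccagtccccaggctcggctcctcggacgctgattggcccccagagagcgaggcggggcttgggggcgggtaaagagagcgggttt

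Neutrophil granule genes were lower in tHSC1 for 7 of 17 tested members, and this rested on a few cells. S100a9 stood at 841, 0.674, 782, 638, 24.6 and 13.2 CPM in the tHSC1 sums of L1, L49, L54, L55, L74 and L76, and at 56931, 2.69, 9165, 2255, 44.1 and 0.809 CPM in the tHSC3 sums (log2 -2.92 ± 0.33, adjusted p = 1.6e-15). Without L1 the calls of S100a9, S100a8, Ngp and Camp ended (adjusted p = 0.51, 0.564, 0.888 and 0.92). With robust estimates they ended too (adjusted p = 0.641, 0.650, 0.695 and 0.692), and 1 of the 17 members was called. In L1, L54 and L55 S100a9 stood at 638 CPM or more in both subtypes, and in the other 3 libraries at 44.1 CPM or less in both. Of the cell cycle brake and quiescence genes, 1 of 18 was called (Nfix, higher in tHSC1). The lists of DNA replication and G1/S (26 tested, median log2 change -1.81), of G2/M and mitosis (24 tested, median -2.61) and of glycolysis (15 tested, median 0.42) had no called member, and 1 of 20 oxidative phosphorylation genes was called (Ndufa1, lower in tHSC1).

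tHSC2 and tHSC3 shared only the libraries L1 and L76, with 20 and 2 tHSC2 cells and 1 and 16 tHSC3 cells. The same test called 41 of 9996 genes (0.41%), 18 higher (0.18%) and 23 lower (0.23%) in tHSC2. With each cell thinned 49 were called, 35 higher and 14 lower. With the 2 types alone in the fit 25 were called, 0 higher and 25 lower, so the calls of Pdzk1ip1, Ifitm1 and Angpt1 given below ended (adjusted p = 0.126, 0.0831 and 1). By list, 4 of 32 HSC identity genes were higher in tHSC2, and 6 of 22 plasma cell and secretory genes and 6 of 17 neutrophil granule genes were lower. Pdzk1ip1 stood at 702 and 1221 CPM in the tHSC2 sums of L1 and L76, and at 26.1 and 24.7 CPM in the tHSC3 sums (log2 4.76 ± 0.86, adjusted p = 2.38e-05). Ifitm1 stood at 5685 and 2587 CPM in tHSC2 and at 406 and 130 CPM in tHSC3 (log2 4.27 ± 0.42, adjusted p = 1.87e-20). Angpt1, a ligand that keeps stem cells quiet, had 245 and 559 CPM in tHSC2 and 8.23 and 20.6 CPM in tHSC3 (log2 3.86, adjusted p = 0.0235). Hlf, at 167 CPM on average in tHSC2 and 13.1 CPM in tHSC3, was not called (log2 3.67, adjusted p = 0.0786). Without L1, which leaves 1 library with both, the calls of Lcn2, Camp, S100a8 and Ngp ended. With robust estimates 30 genes were called, all among the 41, of which 5 were plasma cell and secretory genes and 0 neutrophil granule genes.

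Between tHSC1 and tHSC2, genes were called in a comparison between libraries, in which Hlf and 4 immediate early genes were higher, and Ifitm1 and 4 granule genes lower, in tHSC1. With sums of 5 or more cells, tHSC1 was present in L49, L50, L51, L73, L74 and L76 and tHSC2 in L1, L14, L15 and L81, so that no library held both. edgeR's quasi-likelihood test called 70 of 12725 genes (0.55%), 45 higher (0.354%) and 25 lower (0.196%) in tHSC1. With RLE scaling 36 were called, 27 higher and 9 lower. Library ranges did not overlap in 59 of the 70, against 4.42% of all genes tested. The 70 were called on these same sums, so the count of 59 is a description and adds no support. Subtype and library cannot be told apart in this comparison. Without L1, L14 and L15, the libraries with Y-linked counts, which left 1 tHSC2 library, 5 genes were called and 2 of the 70 were among them.

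Hlf stood at 654, 665, 556, 412, 524 and 540 CPM in the tHSC1 sums of L49, L50, L51, L73, L74 and L76, and at 105, 240, 139 and 136 CPM in the tHSC2 sums of L1, L14, L15 and L81. The groups do not overlap, with means of 559 ± 93.1 CPM (SD, n = 6) in tHSC1 and 155 ± 58.7 CPM (n = 4) in tHSC2 (log2 1.62 ± 0.32, edgeR adjusted p = 0.0179). The call ended without L1, L15 or L50 (adjusted p = 0.0676, 0.0595 and 0.0569), and with 3 or more cells per sum (log2 1.71, adjusted p = 0.112), a setting under which 1 gene was called, lower in tHSC1. The order was the same inside each gate that had both, but there too tHSC1 and tHSC2 came from different libraries. The gate therefore does not part subtype from library, and within single libraries the order went both ways, as given below. Within ESLAM, Hlf was 402 CPM in tHSC1 (L73) and 139 CPM in tHSC2 (L15). Within LT_HSC, Hlf was 524 CPM in tHSC1 (L74) and 240 CPM in tHSC2 (L14). In ESLAMSK it was 548 and 445 CPM in tHSC1 (L50, L73) and 105 CPM in tHSC2 (L1), and in Fraction I 556 and 476 CPM in tHSC1 (L51, L76) and 136 CPM in tHSC2 (L81). Mecom followed without a call, at 135 ± 68.6 CPM in tHSC1 and 25.1 ± 17.2 CPM in tHSC2 (log2 2.22 ± 0.63, adjusted p = 0.0924), also with no overlap. Procr (log2 -0.79 ± 0.41, adjusted p = 0.33), Pdzk1ip1 (-0.47 ± 0.27, 0.385) and Fos (0.63 ± 0.34, 0.351) overlapped and were not called.

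Of the immediate early genes, 4 of 28 were higher in tHSC1 and 0 lower, with a median log2 change of 0.65, against 0.16 over all genes. Fosb, a partner of Jun in AP-1, stood at 433, 293, 578, 339, 966 and 339 CPM in tHSC1 and at 56.1, 2.40, 54.5 and 62.8 CPM in tHSC2 (libraries in the order above; log2 3.28 ± 0.53, adjusted p = 0.00445). All tHSC1 libraries lay above all tHSC2 libraries. With robust estimates of spread the call of Fosb ended (adjusted p = 0.0970), and 3 of the 28 genes were called. Fosl2 averaged 113 ± 62.1 CPM in tHSC1 and 9.43 ± 7.93 CPM in tHSC2 (log2 3.34, adjusted p = 0.0383), the small GTPase gene Rhob 128 ± 64.2 CPM in tHSC1 and 15.9 ± 11.9 CPM in tHSC2 (log2 2.72, adjusted p = 0.0383). Egr1, a transcription factor that restrains stem cell division, had 977 ± 358 CPM in tHSC1 and 291 ± 140 CPM in tHSC2 (log2 1.52, adjusted p = 0.042). With 3 or more cells per sum the calls of Fosb, Fosl2, Rhob and Egr1 all ended (adjusted p = 0.0887, 0.280, 0.347 and 0.356). The summed CPM of the list ran from 9282 to 11829 in the tHSC1 libraries and from 1614 to 10021 in the tHSC2 libraries. These genes also answer to cell handling, whose part was not tested.

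**Figure D5:**
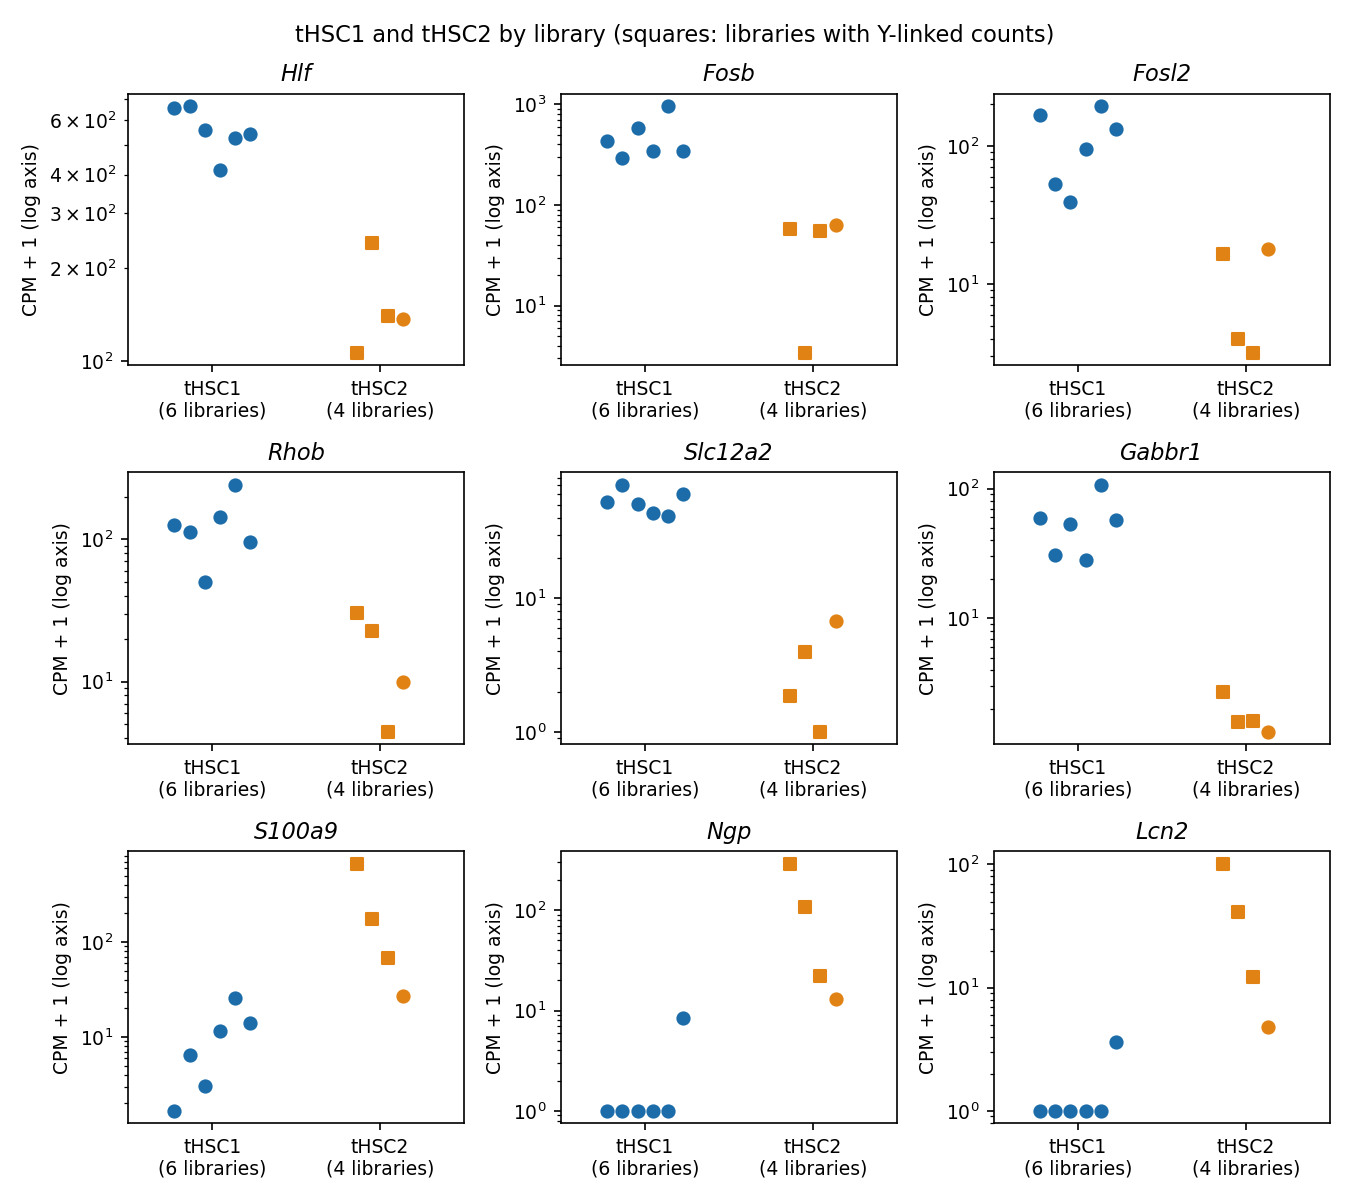
CPM + 1 (log axes) of 9 genes called between tHSC1 (6 libraries) and tHSC2 (4 libraries), each point being the summed counts of 5 or more cells of 1 library. Squares are L1, L14 and L15, with Y-linked counts in every sum. They are 0 of the 6 tHSC1 libraries and 3 of the 4 tHSC2 libraries. The first 6 genes are higher and the last 3 lower in tHSC1, with no overlap.

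Other genes called higher in tHSC1 were low in tHSC2. Slc12a2, a chloride cotransporter, had 40.1 to 69.7 CPM in tHSC1 and 0 to 5.80 CPM in tHSC2 (log2 4.31 ± 1.01, adjusted p = 0.0466). Gabbr1, a receptor subunit for the transmitter GABA, had 27.1 to 106 CPM in tHSC1 and 0.341 to 1.70 CPM in tHSC2 (log2 5.67 ± 1.05, adjusted p = 0.0103). Itga4, the integrin subunit by which stem cells adhere in marrow, was the 1 called member of 20 homing genes, at 119 ± 41.7 CPM in tHSC1 and 22.7 ± 3.97 CPM in tHSC2 (log2 2.13, adjusted p = 0.0466). Dlg3, Nr1d2, Zxdb, Ubr3 and Ppp6r1 were the other large higher changes (log2 4.29 to 6.61). Irf4 was called at 0 to 20.5 CPM in tHSC1, with all 4 tHSC2 libraries at 0, and Chil3, a chitinase-like gene of granulocytes, was called lower, with all 6 tHSC1 libraries at 0 and tHSC2 at 0 to 103 CPM. With DESeq2 both calls ended (adjusted p = 0.0515 and 0.0509).

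Of the HSC identity genes, 1 of 32 was higher (Hlf) and 1 lower in tHSC1, with a median log2 change of -0.09. The lower one was Ifitm1, at 3098 ± 546 CPM in tHSC1 and 4910 ± 1299 CPM in tHSC2 (log2 -0.91 ± 0.20, adjusted p = 0.042). Its call ended without each of L1, L15, L49, L50, L73, L74 and L76. The other lower genes were led by neutrophil granule genes, 4 of 19 tested. S100a9 stood at 0.674 to 24.6 CPM in tHSC1, and at 663, 175, 66.7 and 26.3 CPM in tHSC2 of L1, L14, L15 and L81 (log2 -4.96 ± 0.76, adjusted p = 0.00263). Ngp had 0 to 7.49 CPM in tHSC1 and 11.9 to 289 CPM in tHSC2 (log2 -6.66, adjusted p = 0.0103). In the 6 libraries that held both subtypes, S100a9 was 841 CPM in tHSC1 and 663 CPM in tHSC2 of L1, 59.2 CPM in tHSC1 and 66.7 CPM in tHSC2 of L15, and 5.42 CPM in tHSC1 and 185 CPM in tHSC2 of L50. It was 10.6 CPM in tHSC1 and 0 in tHSC2 of L73, 13.2 CPM in tHSC1 and 0 in tHSC2 of L76, and 0 in tHSC1 and 26.3 CPM in tHSC2 of L81. It was higher in tHSC1 in 3 of these 6 and lower in the other 3. The tHSC1 sums of L54 and L55, which held under 5 cells and no tHSC2 cell beside them, had 782 and 638 CPM. The calls of S100a9, S100a8 and Ngp ended without L1, and with robust estimates of spread (adjusted p = 0.0693, 0.198 and 0.103), which left 1 of the 19 granule genes called. With 3 or more cells per sum, the calls of S100a9 and Ifitm1 ended as well (adjusted p = 0.864 and 0.102).

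Within libraries, tHSC1 and tHSC2 could be set side by side in 6 libraries, in all of which 1 of the sums held 3 cells or fewer. Of 9996 genes, 0 were called (0%) by edgeR's quasi-likelihood test, with 176 at an unadjusted p under 0.05. DESeq2 called 8 and limma voom 9. Hlf was higher in tHSC1 in 4 of the 6: L1 (519 CPM in tHSC1, 105 in tHSC2), L50 (665 in tHSC1, 181 in tHSC2), L76 (540 in tHSC1, 228 in tHSC2) and L81 (715 in tHSC1, 136 in tHSC2). It was lower in L15 (62.1 CPM in tHSC1, 139 in tHSC2) and L73 (412 in tHSC1, 458 in tHSC2). The log2 change was 0.95 ± 0.81 (adjusted p = 1). In L81, the 3 tHSC1 cells had 392 to 1325 CPM of Hlf, and the 42 tHSC2 cells a median of 93.0 CPM (0 to 672). Over the 70 genes called between libraries, the median change in the same direction was 2.31 between libraries and 0.48 within them. The 70 were picked for their change between libraries, which makes the first value large. Both fits also share sums of the same libraries, so these values are a description. With sums this small, a change that was not called within libraries was not shown to be absent. Fosb was 1659 CPM in the 1 tHSC1 cell of L1 and 56.1 CPM in tHSC2 there, but 19.7 CPM in tHSC1 of L81 and 62.8 CPM in tHSC2.

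The same predicted types were rare after transplantation, with 16 tHSC1, 15 tHSC2 and 2 tHSC3 cells. In their summed counts Hlf was 280 CPM in tHSC1, 111 CPM in tHSC2 and 43.6 CPM in tHSC3, and Mecom 276, 27.5 and 0 CPM. Jchain was 1.68 CPM in tHSC1, 2.08 CPM in tHSC2 and 17401 CPM in tHSC3. These are different cells from those above, pooled over days and libraries, and the values carry no test. The order of Hlf over the 3 types, and the high Jchain of tHSC3, were as at steady state. Both sets of cells took their type from the same annotation, so this likeness is no separate support. Pdzk1ip1 was also lower in tHSC3 (15.9 CPM) than in tHSC1 (570 CPM). In the summed counts, Procr (151 CPM in tHSC3, 137 CPM in tHSC1) and Angpt1 (444 and 437 CPM) were not lower in tHSC3, unlike at steady state. The tHSC3 sum holds 2 cells, and Procr was detected in 50% of them. By the median over cells, Procr was 92.2 CPM in tHSC3 and 37.5 CPM in tHSC1, and Angpt1 280 and 348 CPM.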

How the data were processed

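The authors deposited 1 table of whole-number counts per gene and cell (23154 genes), without normalization, and an annotation of 2301 cells. Another 578 cells of the table had no annotation and were left out. The submitters' processing notes name TopHat, HTSeq and mm10 without versions. Whether reads or molecules were counted is not given in the sources used here. No filter on cells was added, and doublets were not called.

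Counts were summed by library and predicted type. The design first chosen, with the library as a block and 5 or more cells per sum, could be met in 1 library (L76). It was replaced, after the data had been seen, by 2 fits. The first compared tHSC1 with tHSC2 between libraries without a replicate block, on sums of 5 or more cells. The second compared all 3 types within libraries, with the library as replicate block, on sums of 1 or more cells. Sums of 1 library come from the same preparation, so the library pairs them. A comparison with other types of the same gates was not possible, since the gates held none. Tests were two-sided in edgeR 4.0.16 (R 4.3.3; filterByExpr, TMM, quasi-likelihood F test, Benjamini-Hochberg, adjusted p under 0.05 called). Standard errors are the log2 change over the square root of F. The prior degrees of freedom came to 20.6 between libraries and were infinite within them, so edgeR was also run with robust estimates of spread. CPM scales each sum or cell to 1000000 counts. The p-values of the first fit measure the spread between libraries, which may be technical, because the animals behind them are not given. Those of the second fit do not measure how a gene's own difference between types varies over libraries. They set it against the spread over libraries that the trend gives to genes of its level. The tHSC3 sums of L1, L49, L55 and L74 were 1 cell each, so this spread also holds differences between single cells. The depth test was run on 1 or more cells for the same reason as the second fit.

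Members, lists and tests were chosen with earlier results of these data known. Named genes are the 8 largest called changes each way, up to 4 called members of each list, or the 2 of smallest p where none was called, the 5 markers and the genes of the sorting proteins; predicted, ribosomal protein, Xist and Y-linked genes were left out. A further gene that this rule names is not reported here. Alternatives were DESeq2 1.42.0, limma 3.58.1 voom, RLE scaling, no filter, cells thinned to 20000 counts, other cell minimums, the 2 types alone, the gate as a term and leaving out libraries. The scripts were tested on simulated counts. Promoters are RefSeq's, in GRCm38.p6, and 3 of the 22 listed genes had no entry.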

Additional observations from a re-analysis of the deposited data

Results flagged for a closer look

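In 7 of 56 groups of library sums (12.5%), 1 library lay far from the others by Dixon's criterion, which chance alone meets in about 1 group in 20. Among the tHSC1 sums, Zxdb was highest in L51 at 148 CPM, Ngp in L76 at 7.49 CPM, Lcn2 in L76 at 2.64 CPM and S100a8 in L74 at 97.7 CPM. Among the tHSC2 sums, Nr1d2 was highest in L81 at 2.05 CPM, Ubr3 was highest in L81 at 7.50 CPM, and Fosb was lowest in L14 at 2.40 CPM.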

How the results depend on the processing

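The number of genes called between tHSC1 and tHSC2 between libraries (70, 64.3% of them higher) depended on method and library. It was 118 with robust estimates of spread (67 higher, 65 of the 70 shared), 556 with DESeq2 (458 higher), 328 with limma voom (143 higher), 220 with voom and sample quality weights (96 higher), 36 with RLE scaling, 134 with no filter, 167 with each cell thinned, 1 with 3 or more cells per sum and 5 without L1, L14 and L15. Leaving out 1 library gave 11 (without L76) to 174 (without L81). DESeq2 kept 65 of the 70 genes and voom 53. Within libraries, tHSC1 against tHSC2 gave 0 calls, 8 with DESeq2, 9 with voom, 1 with quality weights, 4 with 3 or more cells, and 0 to 1 with 1 library left out. tHSC1 against tHSC3 gave 86, but 516 with DESeq2, 203 with voom, 201 with quality weights, 143 thinned and 299 with no replicate block (74 of the 86 kept), and 45 (without L76) to 103 with 1 library left out. tHSC2 against tHSC3 gave 41, but 223 with DESeq2, 121 with voom, 97 with quality weights, 25 with the 2 types alone (0 higher), 8 with 3 or more cells and 158 with no replicate block, and 25 to 44 with 1 library left out.

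The sign of some genes turned. S100a8 between tHSC1 and tHSC2 came to 0.090 without L1, L14 and L15. Fos between tHSC1 and tHSC3 came to -0.47 with voom, -0.63 with quality weights, -0.10 with 3 or more cells and -0.30 with no replicate block. Between tHSC2 and tHSC3 with 3 or more cells, Lcn2 came to 3.74, Camp to 6.26, Ngp to 6.46 and S100a8 to 8.14, and leaving out 1 library moved Ngp between -5.20 and 0.0034 (without L1); the cause was not tested. Genes per cell, tHSC1 minus tHSC2 (0.03), came to -0.32 with 3 or more cells (1 library), and, with 1 library left out, lay between -0.021 and 0.098, turning without L50 (-0.0066) and L76. RLE scaling moved the median change of all genes within libraries by 0.25 for tHSC1 against tHSC2, 0.11 for tHSC1 against tHSC3 and -0.15 for tHSC2 against tHSC3, and the change of method to voom moved it by 0.06, -0.29 and -0.40.

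Not run were the library block with 5 or more or 10 or more cells, which only L76 meets, the HSC gates alone, which hold the same cells, and the block of library and gate, which only Fraction III of L76 meets.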
